A study of Mus musculus with 6 samples.

Results

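The HOX cluster genes of the mouse are described here across 6 RNA libraries measured on Affymetrix Mouse Gene 2.0 ST arrays. A gene was a member if its symbol in the platform annotation is Hoxa, Hoxb, Hoxc or Hoxd followed by a number and a probe set names that gene alone. This gave 36 members among 22180 named genes: 9 of the HoxA cluster on chromosome 6, 10 of HoxB on chromosome 11, 9 of HoxC on chromosome 15 and 8 of HoxD on chromosome 2. Hox genes without a probe set of their own, such as Hoxa11 and Hoxd4, are not analysed here. The library labelled adult cardiomyocytes came from adult mouse heart and the library labelled neonatal cardiomyocytes from neonatal heart. Another 3 libraries came from induced pluripotent stem (iPS) cells at day 7 of cardiac differentiation. These cells had grown for 5 days in suspension as embryoid bodies and were then plated on gelatin with 1% DMSO and 100 ng/ml NRG-1 together, with 100 ng/ml NRG-1, or with 1% DMSO. The last library came from undifferentiated iPS cells, whose stocks are kept with LIF, serum and feeder cells. DMSO is a solvent that can push stem cells to differentiate. NRG-1 (neuregulin 1) is a ligand of ERBB receptors with known roles in heart development. All samples are labelled female and of strain DBA/2J, ages are not given beyond neonatal and adult, and no differentiated culture without DMSO and NRG-1 was analysed here. Each group had 1 library, so the differences below are differences between single libraries, without a test and without an estimate of the spread between samples.

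Hox genes encode homeodomain transcription factors that give cells along the head-to-tail axis their position. Within each cluster the genes lie in paralogue order, and those with low numbers are switched on earlier and further towards the head than those with high numbers. Their proteins bind DNA with cofactors of the PBX, MEIS and PKNOX families, and the genes are switched on by retinoic acid and other signals, and kept silent by Polycomb complexes in pluripotent cells. In the mouse embryo, Hoxb1 and Hoxa3 mark progenitors of the second heart field.

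The labels were checked first, because the heart-derived libraries went against them in part. The Y-linked genes Kdm5d and Uty stood at 7.02 and 7.55 in the adult library and at 6.17 and 7.14 in the neonatal library, against 3.08 and 4.06 in the iPS library, although all samples are labelled female. Xist, the X-inactivation RNA, stood at 3.39 in the adult and 8.78 in the neonatal library, against 5.97 in the iPS library, so the neonatal library held both Xist and Y-linked RNA. The mean log2 level of 12 cardiomyocyte sarcomere genes was 5.38 in the adult and 6.27 in the neonatal library, against 5.51 in the iPS library. That of 10 fibroblast genes was 10.8 in the adult and 10.4 in the neonatal library, against 6.59 in the iPS library. The pluripotency gene Nanog stood between 4.29 and 4.83 in the other 5 libraries, against 11.86 in the iPS library. Group names below are those of the labels.

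The promoters of Hoxb1, Hoxa2 and Hoxa5 are shown because these genes had the largest ranges over the 6 libraries among members with a promoter in the RefSeq table. They were read from RefSeq promoter windows of build GRCm38.p6, from 250 bases before to 50 bases after the start of the gene, 5′ to 3′ on the strand of the gene. Capitals mark TGATNNAT, the letters that a HOX protein paired with PBX binds in vitro, searched on both strands, overlapping matches included. Hoxb1 lies on the plus strand at chr11:96365508-96365807, Hoxa2 on the minus strand at chr6:52164782-52165081 and Hoxa5 on the minus strand at chr6:52204538-52204837.
Hoxb1: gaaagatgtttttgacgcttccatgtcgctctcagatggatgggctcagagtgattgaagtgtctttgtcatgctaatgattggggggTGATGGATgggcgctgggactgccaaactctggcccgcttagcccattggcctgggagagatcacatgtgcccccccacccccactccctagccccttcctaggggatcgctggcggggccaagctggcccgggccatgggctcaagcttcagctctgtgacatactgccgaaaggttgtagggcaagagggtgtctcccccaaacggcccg
Hoxa2: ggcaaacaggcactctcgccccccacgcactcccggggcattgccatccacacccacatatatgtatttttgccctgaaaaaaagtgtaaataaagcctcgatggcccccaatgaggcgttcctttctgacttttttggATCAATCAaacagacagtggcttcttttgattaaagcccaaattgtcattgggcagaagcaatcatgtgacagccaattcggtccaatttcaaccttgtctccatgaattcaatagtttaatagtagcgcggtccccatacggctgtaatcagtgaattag
Hoxa5: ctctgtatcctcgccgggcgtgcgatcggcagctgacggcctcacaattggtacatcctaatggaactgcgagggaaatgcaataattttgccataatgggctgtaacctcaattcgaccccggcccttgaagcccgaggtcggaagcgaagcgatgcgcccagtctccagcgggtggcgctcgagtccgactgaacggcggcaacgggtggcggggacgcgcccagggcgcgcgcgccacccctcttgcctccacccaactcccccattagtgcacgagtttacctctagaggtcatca
The letters were found once in the Hoxb1 window, once in the Hoxa2 window and not in the Hoxa5 window. They occurred in 8.85% of all 32851 promoter windows and in 4 of the 24 windows of Hox genes, which covered 20 of the 36 members. The windows of Hoxb1, Hoxa2 and Hoxa5 held 10, 9 and 29 CG dinucleotides, against a median of 14.5 over Hox windows and 7 over all windows. These are letters in a window and say nothing of binding in these cells.

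Most Hox genes were dim and nearly level across the 6 libraries. Over the 36 members the range between the lowest and the highest library had a median of 0.54 on the log2 scale, beside 0.78 over all named genes and 0.61 over 1394 olfactory and vomeronasal receptor genes, sensory receptors taken as a guide to the level of silent genes. A range under 1, which is less than 2-fold, was found for 31 of 36 members (86.1%), for 64.3% of all named genes and for 88.6% of the receptor genes. The table holds no detection values, so absence of a transcript could not be shown for any gene.

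Of the 36 members, 22 did not reach the median of all values (5.20) in any library, and 5 reached it in every library. Those 5 were Hoxa4, Hoxb1, Hoxb2, Hoxb5 and Hoxd8. Set against the 95th percentile of the receptor genes in the same library, which lay between 4.87 and 5.07, 8 members were above it in all 6 libraries and 12 in none. The 12 were Hoxa3, Hoxa9, Hoxa10, Hoxb6, Hoxb7, Hoxb8, Hoxc4, Hoxc5, Hoxc11, Hoxd3, Hoxd9 and Hoxd13. By library, the number of members above that percentile was 11 in adult, 12 in neonatal, 13 with DMSO and NRG-1, 19 with NRG-1, 13 with DMSO and 19 in iPS cells. These counts were not made over all named genes, so they do not show by themselves a trait of Hox genes. Between adult and iPS cells, the higher value reached the median of all values in 12 of 36 members and in 13760 of 22180 named genes. Levels of different genes come from different probes and are not ranked here.

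**Figure D1:**
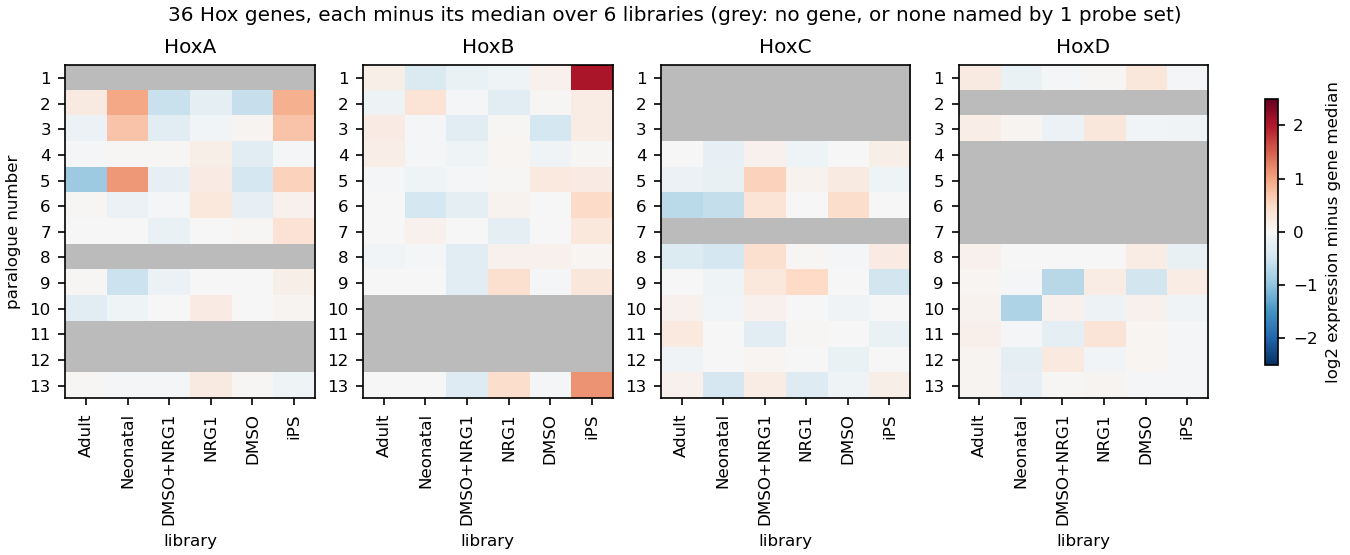
Each of the 36 members, by cluster (panels) and paralogue number (vertical axis), in the 6 libraries (horizontal axis), as the log2 value minus the median of that gene over the libraries. Most cells are pale. Hoxb1 stands out in the iPS library, at 7.77 beside a median of 5.72, as do Hoxb13 there, at 5.89 beside 4.77, and Hoxa5 in the neonatal library, at 6.66 beside a median of 5.57.

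Hoxb1, the first gene of its cluster and known in the mouse embryo for hindbrain segment identity, was the one member with a range above 2 (2.40). Its log2 level was 5.87 in the adult, 5.37 in the neonatal, 5.56 in the DMSO and NRG-1, 5.61 in the NRG-1 and 5.83 in the DMSO library, against 7.77 in the iPS library. The iPS library was the highest and the other 5 lay within 0.50 of each other. Differences from iPS cells were -1.90 for adult, -2.40 for neonatal, -2.21 for DMSO and NRG-1, -2.16 for NRG-1 and -1.93 for DMSO. All 5 share the iPS library, so they are not independent of each other. Genes with 2 probe sets gave a rough guide to measurement error. The SD of the disagreement between the 2 sets was divided by the square root of 2. For differences from iPS cells this error SD per probe set was 0.60 to 0.67, over 718 to 729 such genes. The disagreement itself was larger.

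Neural markers differed between the heart-derived libraries and the cultures in how far they moved with Hoxb1. Of the 5, Sox1 stood at 4.14 to 4.46 in the other libraries, against 7.28 in iPS cells, and Pax6 was also highest in iPS cells. Neurog2 was lowest in iPS cells (5.83), and Tubb3 and Map2 were 0.08 to 0.18 above iPS cells in the adult and neonatal libraries, so that the median difference of the 5 was 0.06 in adult and 0.08 in neonatal. In the cultures that median was -1.43 with DMSO and NRG-1, -0.89 with NRG-1 and -0.91 with DMSO. There Tubb3 differed from iPS cells by -2.93 to -3.61 and Map2 by -0.89 to -1.43. The mean of the 10 fibroblast markers, which feeder cells would carry, was 7.95 to 10.8 in the other libraries, against 6.59 in the iPS library, where 9 of 10 were above the receptor percentile. The part of these cells in the Hoxb1 value was not tested. In bulk RNA, fewer cells of a type and less RNA per cell cannot be told apart.

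The other members with a range of at least 1 were Hoxa2, Hoxa5, Hoxb13 and Hoxc6, described after their values were seen. Hoxa2, which patterns the hindbrain and the second pharyngeal arch, stood at 5.41 in the adult, 6.14 in the neonatal, 4.62 in the DMSO and NRG-1, 4.95 in the NRG-1 and 4.61 in the DMSO library, against 6.08 in iPS cells. The neonatal and iPS libraries were high, the 3 differentiated cultures low, and the adult library lay between them. Hoxa5, known for patterning the neck and the lung, stood at 4.67 in the adult, 6.66 in the neonatal, 5.36 in the DMSO and NRG-1, 5.78 in the NRG-1 and 5.14 in the DMSO library, against 6.15 in iPS cells. Here too the neonatal and iPS libraries were the highest, and the adult library was the lowest, below the receptor percentile of 5.07.

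Hoxa3, a gene of the third pharyngeal arch that lies between Hoxa2 and Hoxa5, had the same top pair. It stood at 3.82 to 4.14 in the adult library and the 3 cultures and at 4.78 in the neonatal library, against 4.79 in the iPS library. It was above the receptor percentile in no library. Hoxa4, which lies between Hoxa3 and Hoxa5, ranged only from 6.13 to 6.57, with the NRG-1 library highest. Neighbouring genes at this end of HoxA did not share 1 pattern.

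Hoxb13, at the other end of its cluster from Hoxb1 and known for the tail bud and the prostate, was 4.76 in the adult, 4.77 in the neonatal, 4.44 in the DMSO and NRG-1, 5.20 in the NRG-1 and 4.72 in the DMSO library, against 5.89 in iPS cells. The iPS library was the highest and the NRG-1 library next. Hoxc6, a gene of the thoracic region, was 3.85 in the adult, 3.93 in the neonatal, 4.88 in the DMSO and NRG-1, 4.54 in the NRG-1 and 4.96 in the DMSO library, against 4.52 in iPS cells. Both heart-derived libraries were the lowest for Hoxc6, and none of the 6 reached the median of all values.

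**Figure D2:**
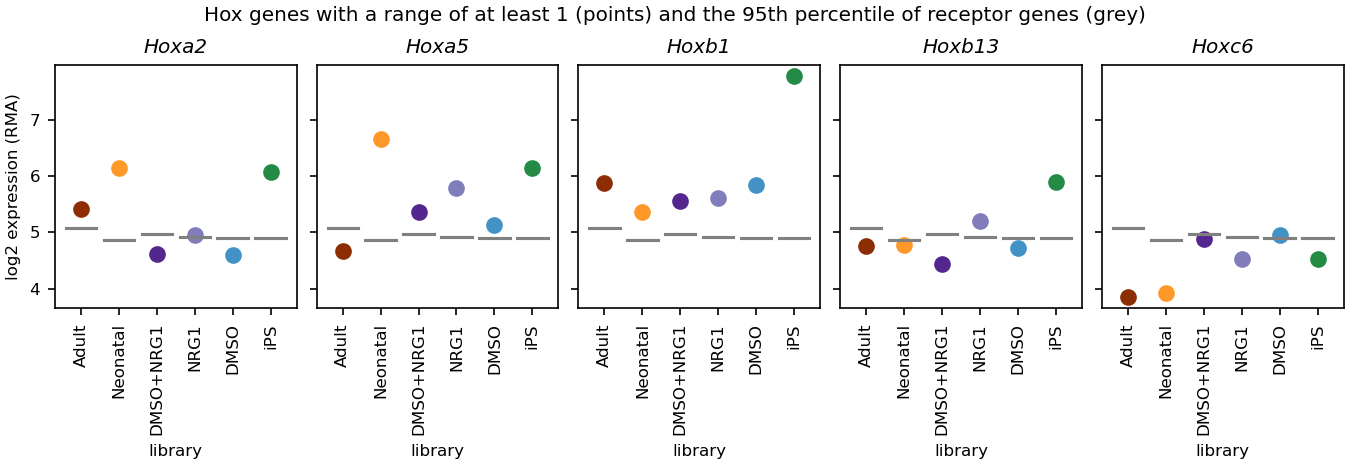
Log2 levels (vertical axis) of the 5 members with a range of at least 1, by library (horizontal axis, 1 point per library), with the 95th percentile of receptor genes of each library as a grey bar. Hoxb1 lies above the bar in all 6 libraries and Hoxb13 in 2, and Hoxa2 and Hoxa5 are highest in the neonatal and iPS libraries.

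The adult library was set against iPS cells to describe Hox expression in heart-derived cells. Of the 36 members 0 were at least 2-fold higher and 3 were lower, Hoxb1 (-1.90), Hoxa5 (-1.48) and Hoxb13 (-1.13). Hoxa5 (4.67) and Hoxb13 (4.76) lay below the receptor percentile of the adult library (5.07) and passed the filter through the iPS value alone, so the sizes of their differences are uncertain. A gene was counted when the higher of its 2 values reached 5.20, which 12 members did. Among all genes that passed, 13.1% were higher and 14.1% lower. The median over all 36 members was -0.10, beside -0.02 over all named genes, and the largest positive difference was that of Hoxc9 (0.45).

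In the neonatal library, 0 members were at least 2-fold higher than in iPS cells and 2 were lower, Hoxb1 (-2.40) and Hoxb13 (-1.12). Hoxb13 (4.77) lay below the neonatal receptor percentile (4.87) and passed the filter through the iPS value alone, so the size of its difference is uncertain. Among all genes that passed the filter 13% were higher and 11.2% lower. The median over 36 members was -0.17, beside -0.04 over all genes, and 11 members passed the filter. Hoxa5 differed by 0.51, Hoxa2 by 0.07 and Hoxb6, known in the mouse for trunk mesoderm, by -0.93. Both heart-derived libraries were rich in fibroblast transcripts, and the part of these in the Hox values was not tested.

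Adult and neonatal libraries were compared with each other. Of the 10 members that passed the filter, Hoxa5 was the 1 at least 2-fold lower in the adult library (-1.99), and 0 were higher. Of all genes that passed, 2.92% were lower and 2.52% higher. The adult value of Hoxa5 was below the receptor percentile, so the size of this difference is uncertain. The error SD per probe set, from genes with 2 probe sets, was 0.40 in this comparison. Hoxa3 (-0.85) and Hoxa2 (-0.73) were also lower in the adult library without reaching 2-fold, and Hoxd10, a gene of the lumbar cord and limb, differed by 0.85. Of all 36 members, 24 were above 0. All 8 HoxD members were among them, with a median of 0.23, but all under 2-fold. The HoxD members were also above 0 after cyclic loess (median 0.16). The housekeeping shift (median 0.28) raises every gene by the same amount here, so it could not put them below 0. Of these members, Hoxd3, Hoxd9 and Hoxd13 were above the receptor percentile in no library, and Hoxd1 and Hoxd11 in 1 each. This median is 1 of 63 class medians that were computed. Markers of several cell types differed between these libraries as well. Of 5 epithelial markers 3 were at least 2-fold lower in the adult library and 0 higher, with a mean of 5.64 in the adult and 7.07 in the neonatal library. Of 12 sarcomere markers 5 were lower and 0 higher, and of 5 macrophage markers 3 were higher and 0 lower. The 5 epicardial markers were split, with Wt1 (-1.59) and Upk3b (-1.87) lower, Aldh1a2 (2.44) higher, and Tcf21 (-0.07) and Tbx18 (0.24) between them. Their part in the Hoxa5 difference was not tested.

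Each differentiated culture was set against undifferentiated iPS cells. In each culture all 5 endoderm markers and 4 of 5 epithelial markers were at least 2-fold higher than in iPS cells. The difference of Afp from iPS cells was 6.05 with DMSO and NRG-1, 6.72 with NRG-1 and 5.96 with DMSO. Of 12 sarcomere markers 8 were higher with DMSO and NRG-1, 6 with NRG-1 and 9 with DMSO. Their part in the Hox values was not tested. With DMSO, 12 members passed the filter. Of these, 0 were at least 2-fold higher and 4 were lower, Hoxb1 (-1.93), Hoxa2 (-1.47), Hoxb13 (-1.17) and Hoxa5 (-1.01). Of all genes that passed, 13.1% were higher and 13.3% lower. With NRG-1, 11 members passed, 0 higher and 2 lower, Hoxb1 (-2.16) and Hoxa2 (-1.13), beside 11.3% and 14.5% of all genes that passed. Hoxa2 was -0.98 from iPS cells, short of 2-fold, when libraries were shifted to equal housekeeping medians. With DMSO and NRG-1, 13 members passed, 0 higher and 3 lower, Hoxb1 (-2.21), Hoxa2 (-1.46) and Hoxb13 (-1.45), beside 13% and 13.1%. Apart from Hoxb1, each member counted as lower was below 5.20 in its culture and passed the filter through the iPS value alone. Among these, Hoxa2 with NRG-1 (4.95) and Hoxa5 with DMSO (5.14) lay above the receptor percentile (4.92 and 4.90). Hoxa2 and Hoxb13 lay below the receptor percentile both with DMSO (4.90) and with DMSO and NRG-1 (4.97). The sizes of all these differences are uncertain. Medians over all 36 members were -0.14 with DMSO, 0.001 with NRG-1 (-0.13 after cyclic loess) and -0.11 with both, beside -0.002, -0.002 and -0.02 over all genes.

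Set against iPS cells, the DMSO and NRG-1 library had 23 of 36 members below 0, among them all 10 HoxB members. Their median was -0.39, 1 of the 63 class medians that were computed. The HoxB members were also below 0 after cyclic loess. The housekeeping shift lowers every gene by the same amount here, so it could not put them above 0. The HoxB medians were -0.27 for adult, -0.25 for neonatal, -0.29 for NRG-1 and -0.30 for DMSO. With NRG-1, 7 HoxB members were below 0, 10 after cyclic loess and 7 after the housekeeping shift. With DMSO, 8 were below 0, 9 after cyclic loess and 10 after the shift, which lowers every gene in that comparison as well. Hoxb6, Hoxb7 and Hoxb8 were above the receptor percentile in no library. Of the HoxC members 7 of 9 were above 0 with DMSO and NRG-1, with a median of 0.11, and 5 of 9 after cyclic loess, with a median of 0.03. Hoxc9 differed from iPS cells by 0.72 and Hoxc5 by 0.67. Hoxc9, a gene of thoracic motor columns, was also the most positive member with NRG-1 (0.96), at a level of 5.01 in the NRG-1 and 4.05 in the iPS library. By position, members with paralogue numbers 1 to 3 had medians of -0.31 in adult, -0.003 in neonatal, -0.46 with DMSO and NRG-1, -0.46 with NRG-1 and -0.62 with DMSO. In the same order, those numbered 4 to 8 had medians of -0.19, -0.19, -0.13, -0.07 and -0.20, and those numbered 9 to 13 had 0.09, -0.19, 0.03, 0.01 and -0.09. The lowest numbers had the lowest median in adult and the 3 cultures and the highest in neonatal. Within each class the members spread widely, with numbers 1 to 3 reaching from -1.93 to 0.30 with DMSO.

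**Figure D3:**
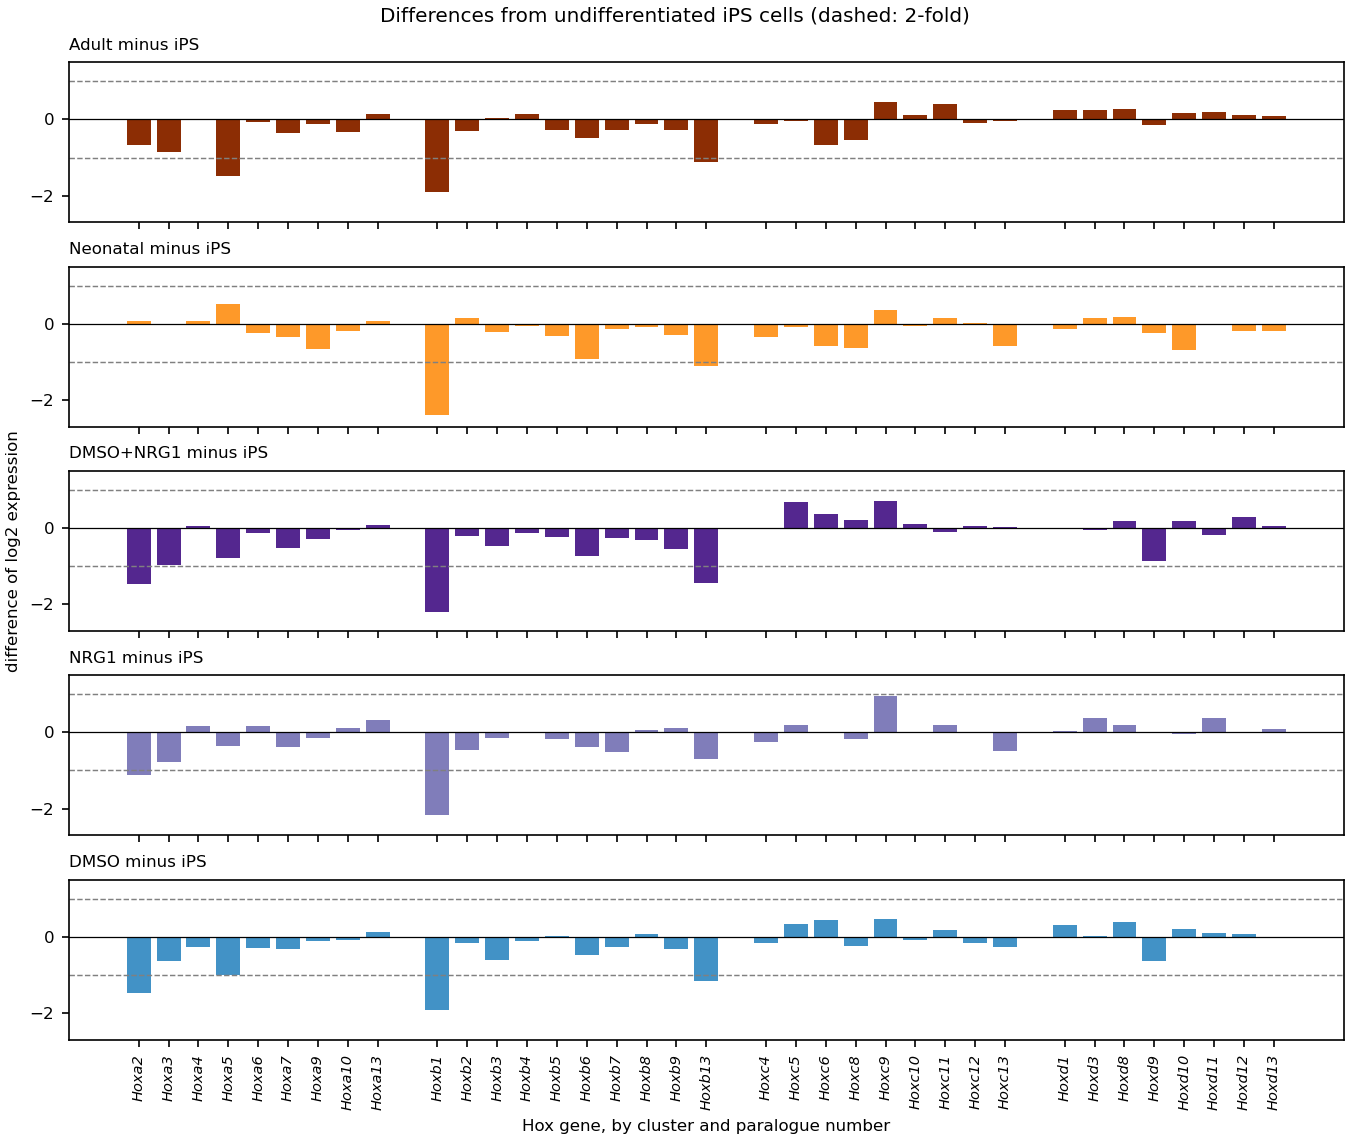
Difference of log2 expression from undifferentiated iPS cells (vertical axis) for the 36 members in order of cluster and paralogue number (horizontal axis), 1 panel per library, with dashed lines at 2-fold. Hoxb1 lies between -1.90 and -2.40 in the 5 panels, and 0 bars reach the upper line.

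The differentiated cultures were compared with each other. Few genes of any kind were 2-fold apart, and 10 or 11 Hox genes passed the filter, so a count of 0 among them is near the general share. For NRG-1 minus DMSO, 0 members were at least 2-fold higher and 0 lower, beside 0.36% and 1.78% of all genes, and the differences ran from -0.43 for Hoxc6 to 0.65 for Hoxd9. Hoxa5 differed by 0.64 and Hoxb13 by 0.48. After the housekeeping shift the median of all genes in this comparison was 0.24 and that of the Hox genes 0.34, beside -0.01 and 0.08 before it, and Hoxb1 stood at 0.03 in place of -0.23. The error SD per probe set was 0.31. For DMSO and NRG-1 minus DMSO, 0 were higher and 0 lower, beside 0.0455% and 0.053%, and the differences ran from -0.39 to 0.44. For DMSO and NRG-1 minus NRG-1, 0 were again higher and 0 lower, beside 1.08% and 0.293%, with Hoxd9 at -0.88 and Hoxb13 at -0.76. Hoxd9 was above the receptor percentile in no library. In this last comparison 25 of the 36 members were below 0, among them all 9 HoxA members, with a median of -0.20. That median is 1 of the 63 class medians that were computed. The HoxA members were also below 0 after cyclic loess (-0.14). The housekeeping shift (-0.37) lowers every gene by the same amount here, so it could not put them above 0. Of these members, Hoxa3, Hoxa9 and Hoxa10 were above the receptor percentile in no library. The error SD per probe set was 0.30.

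Hoxb5, known for the neck and upper thorax, was the 1 member with 2 probe sets, and they did not agree. One ranged from 4.70 to 5.42, with iPS cells the highest, and the other from 5.62 to 6.14, with DMSO the highest. Against iPS cells the first was below 0 in all 5 comparisons, by -0.34 to -0.72, whereas the other ran from -0.13 to 0.39. Another 7 probe sets name a Hox gene together with another symbol and were not used for any gene. Their ranges over the 6 libraries were 0.21 to 0.79.

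The measured long noncoding RNAs of the clusters, 2 of 6 listed, were nearly level. Hotair, a long noncoding RNA of the HoxC cluster, ranged from 4.36 to 4.69, and Hoxd3os1, an antisense transcript at Hoxd3, from 5.06 to 5.36. The microRNAs of the clusters are known to bind Hox transcripts among others. They are shown from RefSeq (GRCm38.p6) with the seed, bases 2 to 8, in capitals, because their genes lie inside the clusters and 3 of 5 listed were measured.
mmu-miR-10b-5p: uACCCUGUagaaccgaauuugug
mmu-miR-196a-5p: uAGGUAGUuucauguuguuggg
Mir10b, in the HoxD cluster, ranged from 2.30 to 2.59. The same mature miR-196a comes from Mir196a-1 in HoxB and Mir196a-2 in HoxC. Mir196a-1 was 3.73 to 4.12 in the other libraries, against 4.66 in iPS cells, the highest. Mir196a-2 was 4.69 in the adult library, the highest, against 3.57 in iPS cells, the lowest. None of these 3 reached the receptor percentile in any library.

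Genes that work with Hox proteins were described from lists. Of 8 measured cofactors, Meis1, which binds DNA together with HOX and PBX proteins, was at least 2-fold above iPS cells in all 5 libraries and its relative Meis2 in 4, all but NRG-1. Meis1 stood at 9.08 in the adult, 9.92 in the neonatal, 9.73 in the DMSO and NRG-1, 9.47 in the NRG-1 and 9.70 in the DMSO library, against 7.38 in iPS cells, so the iPS library was the lowest by 1.69 or more. Meis2 stood at 9.22 in the adult, 10.52 in the neonatal, 8.98 in the DMSO and NRG-1, 8.16 in the NRG-1 and 9.16 in the DMSO library, against 7.58 in iPS cells. The NRG-1 library differed from iPS cells by 0.58 only. Pknox2, of a related family, differed from iPS cells by -1.67 with DMSO and NRG-1, -1.94 with NRG-1 and -1.29 with DMSO, with values of 4.96 with DMSO and NRG-1, 4.69 with NRG-1 and 5.33 with DMSO, against 6.62 in iPS cells. Pbx2, Pbx4, Meis3 and Pknox1 stayed within 1 of iPS cells, and Pbx3 was lower with NRG-1 (-1.38).

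Among 9 measured regulators, Rarb, a retinoic acid receptor that is itself induced by retinoic acid, was higher than in iPS cells in all 5 libraries. It stood at 7.58 in the adult, 8.63 in the neonatal, 7.35 in the DMSO and NRG-1, 7.29 in the NRG-1 and 7.48 in the DMSO library, against 5.38 in iPS cells. Of the other retinoic acid receptors, Rara differed by -0.18 to -0.37, and Rarg was lower, at least 2-fold with DMSO and NRG-1 (-1.22) and with NRG-1 (-1.07). Cdx1, Cdx2 and Cdx4, homeobox activators of Hox genes in the tail bud, ranged over 0.46, 0.76 and 0.56. Otx2 and Gbx2, which set the border between midbrain and hindbrain, were lower than in iPS cells. The differences were -2.20 to -2.61 for Otx2 and -0.60 to -1.33 for Gbx2, the mean of 2 probe sets. With the brighter set alone, Gbx2 did not reach 2-fold in the cultures. The count of regulators at least 2-fold lower fell from 3 to 2 with DMSO and NRG-1 and with NRG-1, and from 2 to 1 with DMSO. Egr2, which switches on Hoxa2 and Hoxb2 in the mouse hindbrain and also responds early to growth signals, was 9.35 in the adult and 7.21 in the neonatal library, against 5.98 in iPS cells. Hoxa2 differed from iPS cells by -0.66 in adult and 0.07 in neonatal, and Hoxb2 by -0.31 in adult and 0.15 in neonatal.

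Polycomb genes, whose products silence Hox clusters, were in part lower in each library than in iPS cells. Of 15 measured, 8 were at least 2-fold lower in adult, 8 in neonatal, 5 with DMSO and NRG-1, 5 with NRG-1 and 7 with DMSO, and 0 were higher in any of them. The filter was passed by 15 in the neonatal comparison and by 14 in the other 4. Of all genes that passed, 14.1% were lower in adult, 11.2% in neonatal, 13.1% with DMSO and NRG-1, 14.5% with NRG-1 and 13.3% with DMSO. Phc1, a subunit of Polycomb complex 1, was 6.47 in the adult, 6.83 in the neonatal, 6.70 in the DMSO and NRG-1, 6.57 in the NRG-1 and 6.66 in the DMSO library, against 10.41 in iPS cells. Jarid2, which helps bring Polycomb complex 2 to its targets, differed by -3.67 in adult, -3.56 in neonatal, -2.23 with DMSO and NRG-1, -2.57 with NRG-1 and -2.12 with DMSO. Ezh2, the methyltransferase of complex 2, differed by -1.56 in adult, -0.66 in neonatal, -1.58 with DMSO and NRG-1, -1.51 with NRG-1 and -1.84 with DMSO. Its relative Ezh1 differed by -1.20 in adult and -1.39 in neonatal and stood 0.21 to 0.61 above iPS cells in the cultures.

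Of 7 genes of the opposing Trithorax side, Ash2l and Wdr5, shared subunits of the methyltransferase complexes, were lower than in iPS cells in all 5 libraries, by -2.26 to -2.48 and by -1.01 to -1.54. Kmt2a, the methyltransferase that maintains Hox expression, differed by -0.06 to 0.43. Kdm6a, which removes the Polycomb mark, differed by -0.92 to -1.90 and Kdm6b, its relative, by 0.22 to 0.75.

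**Figure D4:**
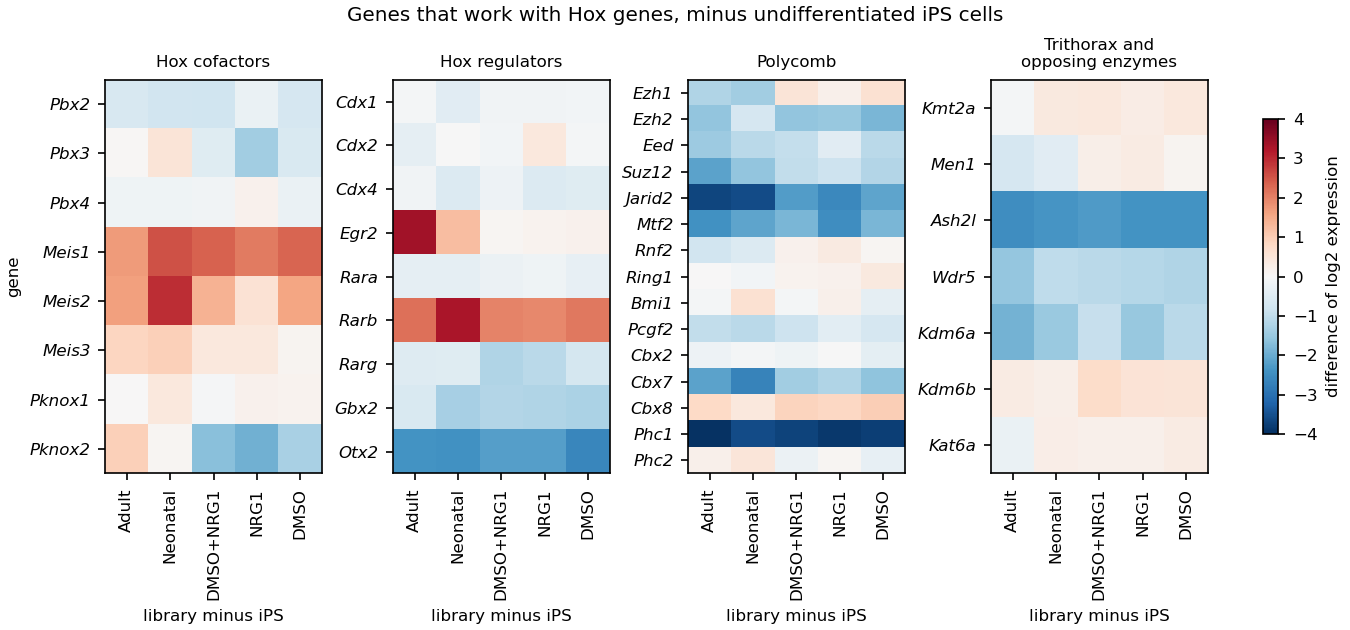
Difference of log2 expression from undifferentiated iPS cells (colour) for cofactors, regulators, Polycomb genes and Trithorax genes (panels, genes down the side) in the 5 other libraries. Meis1 and Rarb are red in each library, and Phc1, Jarid2, Ash2l and Otx2 blue in each.

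Genes beside the clusters are given for comparison of values. Skap2, next to HoxA, was 7.54 in the adult, 6.79 in the neonatal, 6.88 in the DMSO and NRG-1, 7.21 in the NRG-1 and 6.74 in the DMSO library, against 8.96 in iPS cells. The iPS library was the highest. Of the same list, Hibadh differed from iPS cells by 0.25 in adult, -0.24 in neonatal, -1.07 with DMSO and NRG-1, -1.47 with NRG-1 and -0.90 with DMSO. Tax1bp1 ranged over 0.43. Near HoxB, Skap1 and Snx11 ranged over 0.59 and 0.10. Cbx1, on the same side, was highest in iPS cells (9.56) and differed from them by -0.50 to -1.32 in the other libraries. Smug1, near HoxC, ranged over 0.28, and Mtx2 and Lnpk, near HoxD, over 0.94 and 1.02.

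Other homeobox genes of the same ancestral group were also dim. Of 8 measured, Meox1, a gene of somites and of activated fibroblasts, was the 1 at least 2-fold higher in any comparison, at 6.63 in the adult library and 5.38 in the neonatal library, against 4.51 in iPS cells. Evx1, Evx2, Gsx1, Gsx2, Mnx1 and Pdx1 each ranged over less than 1, and Meox2 over 1.19. Among 6 genes known as Hox targets in mouse tissues, Bmp4 was the most variable, at 8.24 in the adult, 8.60 in the neonatal, 7.61 in the DMSO and NRG-1, 6.04 in the NRG-1 and 7.99 in the DMSO library, against 9.54 in iPS cells. Tbx5, a heart and forelimb factor, was 1.23 higher in the neonatal library than in iPS cells, with 0.56 for adult and 0.04 to 0.55 for the cultures.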

How the data were processed

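RNA of 6 mouse samples, 1 per group and 300 ng each, was hybridised to Affymetrix arrays. The deposited table holds log2 values of 41345 probe sets, made by the authors with RMA, per the submitters' processing notes. Neither the version of RMA nor the genome build was given in the sources used here. The 6 arrays had the same distribution of values to within 0.285, so shifts common to most genes are hidden. The number of arrays limits precision.

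The platform annotation gave 23521 probe sets with 1 symbol, 1814 with several (not used) and 16010 unlisted here. A gene is the mean of its probe sets (22180 genes). Differences are of log2 values, with no test. Genes were counted where the higher value reached the median of all values (5.20) and the difference was at least 1. Written out in full were members with a range of at least 2 and a value at that median, which only Hoxb1 met, then those with a range of at least 1. Of other lists up to 4 members by range were meant to be named, and any cofactor, regulator or cluster RNA. Further members were chosen after their values were seen. Members and lists were chosen with earlier results of these data known. Counting was tested on simulated data with differences well above the threshold, in genes whose mean reached the median. That checks the code only and says nothing of small differences or dim genes. Alternatives were other filters, a 4-fold threshold, the brightest probe set, cyclic loess (limma 3.58.1) and a shift to equal medians of 9 housekeeping genes.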

Additional observations from a re-analysis of the deposited data

How the results depend on the processing

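No paired analysis was possible because each group has 1 library. In the 9 comparisons cyclic loess moved the median over all 36 Hox genes and the 5 most variable members by less than 1.5-fold. The brightest probe set also moved the medians by less than that, and could not change these 5 members, which have 1 probe set each. The housekeeping shift moves every gene of a library by the same amount, from -0.11 to 0.15. That is too little to reach 1.5-fold, so this check could not have failed for medians or members. The median over Hox genes changed sign for NRG-1 minus iPS (0.001, and -0.13 after cyclic loess). It also did for DMSO with NRG-1 minus DMSO (-0.03, and 0.05 after the shift). The shift put the median of all genes at 0.24 for NRG-1 minus DMSO, beside -0.01. Counts of Hox genes at least 2-fold apart did not change by over 1.5 times with no filter, the receptor filter, the brightest probe set or cyclic loess. A stricter filter at 6.93, the 75th percentile, left 1 gene, Hoxb1, in each of the 5 comparisons with iPS cells and 0 for adult minus neonatal. At 4-fold, 1 gene (Hoxb1) was left for neonatal, NRG-1 and DMSO with NRG-1, and 0 for adult minus iPS, DMSO minus iPS and adult minus neonatal. The housekeeping shift left 1 (Hoxb1) for NRG-1 minus iPS. By construction, a stricter filter tests fewer genes and a higher threshold calls fewer. With 1 array per group and no detection values, levels near 5 cannot be told from silent genes.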
